A study of Mus musculus with 2 samples.

Results

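The transcripts of the mitochondrial genome are described here as RNA that is not expected on nuclear chromatin. They were taken as all listed transcripts whose gene symbol starts with mt-, which gave 25 of the 48876 transcripts counted in both libraries. These are 13 mRNAs, 2 rRNAs and 10 tRNAs. RNA was isolated by enChIP, in which a tagged protein that binds chosen DNA is expressed in cells and its crosslinked chromatin is pulled down, here with an anti-FLAG antibody. The source was Ba/F3-derived cells of a mouse hematopoietic line (strain C3H by the labels). The 3xFN-Tel-TAL library came from cells that stably express a FLAG-tagged transcription activator-like protein with a nuclear localization signal, which recognizes telomeric repeats, and is called Tel-TAL below. The 3xFNLDD library is the negative control, from cells that stably express FLAG-tagged LexA, and is called the control below. Each condition is 1 library, so no difference has a replicate check and no p-value is given. A cell line, a tagged protein and a library preparation differ together between the conditions, and their effects cannot be told apart.

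The mouse mitochondrial genome is a small circle in the mitochondrial matrix, outside the nucleus. It is transcribed from both strands into long precursors, and tRNAs that lie between the other genes are cut out to release the mRNAs and rRNAs. The mRNAs encode subunits of respiratory complexes I, III and IV and of the ATP synthase (complex V), and the rRNAs build the mitochondrial ribosome. The mRNAs of the heavy-strand precursor carry poly(A) tails, and some of them hold a pair of overlapping reading frames.

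The counts rested on 7206183 reads in the control and 9774844 reads with Tel-TAL. In both libraries 11 RNAs held most reads, 84.8% in the control and 81.1% with Tel-TAL. All 9 marker genes of this interleukin-3-dependent line were listed, from 23 reads (Spi1) to 1635 reads (Csf2rb) over both libraries, among them Csf2rb with 583 and 1052 reads and Csf2rb2 with 751 and 849 reads, the first value being that of the control. Of 6 markers of other cell types 4 were listed, with at most 31 reads in both libraries together. Alb and Ins2 have no row. RPM is a read count divided by its library's total and rescaled alike in both libraries. For the 16468 RNAs that reached 20 reads over both libraries, the log2 ratio of RPM, Tel-TAL over control, had a median of 0.39. This median is the level against which the mitochondrial ratios are read.

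The genes the results turn on lie on chrM, whose 37 genes have the same positions in NCBIM37, from which the sequences below were read, and in GRCm38, the build of the submitters' notes. The sequences are the reference, not those of the strain used. A cluster of 4 tRNA genes on the reverse strand was picked with the counts known. These tRNAs had 20 reads in all with Tel-TAL, at most 9 each, and none in the control. Their genes lie side by side at chrM:5018-5086, chrM:5089-5159, chrM:5192-5257 and chrM:5260-5326, with 32 bases between mt-Tn and mt-Tc. The tRNA for leucine, mt-Tl1 at chrM:2676-2750 on the forward strand, follows the large rRNA, and mt-Tp at chrM:15356-15422 on the reverse strand is the last gene in the order. Capitals mark the anticodon, found as the expected triplet in a loop of 7 bases closed by a stem.
mt-Ta: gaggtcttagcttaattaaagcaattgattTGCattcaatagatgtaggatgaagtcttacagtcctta
mt-Tn: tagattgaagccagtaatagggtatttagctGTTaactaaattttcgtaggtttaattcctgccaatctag
mt-Tc: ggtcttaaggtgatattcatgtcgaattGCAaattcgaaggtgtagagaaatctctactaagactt
mt-Ty: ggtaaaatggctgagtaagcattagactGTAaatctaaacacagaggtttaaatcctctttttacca
mt-Tl1: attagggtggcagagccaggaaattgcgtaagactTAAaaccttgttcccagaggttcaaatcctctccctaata
mt-Tp: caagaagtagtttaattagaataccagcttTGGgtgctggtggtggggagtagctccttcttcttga

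Mitochondrial transcripts together had 16900 reads in the control and 17091 reads with Tel-TAL. This was 0.235% of the control reads (95% Clopper-Pearson interval 0.231 to 0.238) and 0.175% of the Tel-TAL reads (0.172 to 0.177). The log2 ratio was -0.42 (95% interval -0.45 to -0.39), so the sum was lower with Tel-TAL while the median RNA was higher. These intervals and those below reflect counting alone, and reads amplified by PCR are not separate molecules. In bulk pull-downs, less of an RNA per cell, fewer cells that hold it and less of it recovered in the isolate cannot be told apart.

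The classes moved apart. The rRNAs were lower with Tel-TAL, the mRNAs were higher by about as much as the median RNA, and the few tRNA reads were higher. The rRNAs held 96.2% of the mitochondrial reads in the control and 93.3% with Tel-TAL, the mRNAs 3.77% and 6.47%, and the tRNAs 0.036% and 0.205%. The summed log2 ratio was -0.47 (95% interval -0.50 to -0.44) for the rRNAs, 0.36 (0.21 to 0.50) for the mRNAs and 2.10 (0.84 to 3.64) for the tRNAs. Read against the median of all RNAs, these are -0.86, -0.034 and 1.71. RNAs as deeply read as the rRNAs had lower medians, and against those the gap was -0.18 for mt-Rnr1 and -0.53 for mt-Rnr2. TMM factors from edgeR, in place of the totals, moved each log2 ratio by -0.37, which put the mRNA sum at -0.013 and the rRNA sum at -0.84, so the direction for the mRNAs depends on the scaling.

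**Figure D1:**
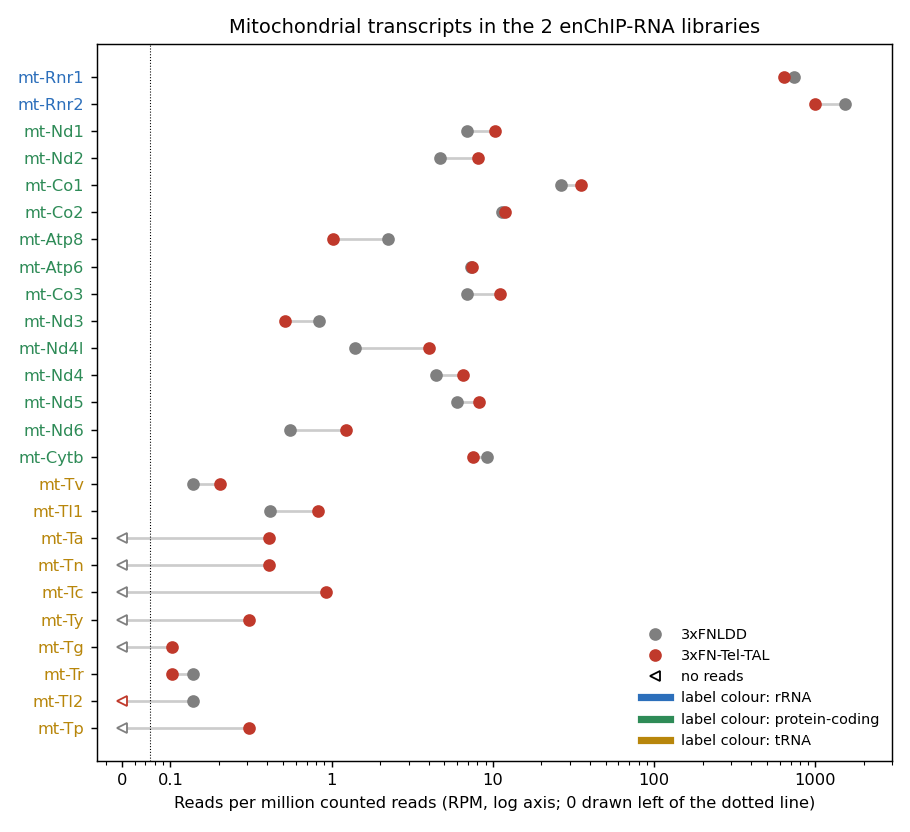
Each row is 1 of the 25 listed mitochondrial transcripts, grouped by class and in gene order, and each point is its RPM on a log axis in 3xFNLDD (gray) or 3xFN-Tel-TAL (red), with triangles for no reads. The 2 rRNAs lie far to the right of the mRNAs and are lower in 3xFN-Tel-TAL. Of the 10 tRNAs, 6 have reads in 3xFN-Tel-TAL, at most 9 each, but none in 3xFNLDD. The share of all RNAs with such counts was not computed.

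Comparisons within a library do not depend on its total. For each mitochondrial mRNA read there were 25.5 rRNA reads in the control and 14.4 with Tel-TAL. The difference between the mRNA and rRNA log2 ratios was 0.82 (95% exact conditional interval 0.68 to 0.97), a 1.77-fold shift. RNAs in general also had lower ratios at the depth of the rRNAs than at that of the mRNAs, which is not taken out here. Per length, the rRNA level was 115 times the mRNA level in the control and 64.8 times with Tel-TAL. The tRNA log2 ratio was higher than that of the mRNAs by a further 1.75 (0.47 to 3.30). This value describes 6 and 35 tRNA reads and is no test, because 6 of the 10 tRNAs are listed only through their Tel-TAL reads. In all, 12 such differences were computed and their intervals are not adjusted for that number.

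The rRNAs did not change alike. mt-Rnr1, the small-subunit rRNA at chrM:70-1024, had 5292 reads (734.4 RPM) in the control and 6229 reads (637.2 RPM) with Tel-TAL. This gave a log2 ratio of -0.20 (95% interval -0.26 to -0.15). mt-Rnr2, the large-subunit rRNA at chrM:1094-2675, had 10965 reads (1522 RPM) and 9721 reads (994.5 RPM), a log2 ratio of -0.61 (-0.65 to -0.57). It was the member with the most reads and the only rRNA past 1.4-fold lower. Per length, mt-Rnr2 stood above mt-Rnr1 in the control, at 961.8 against 769.0 RPM per kilobase, and below it with Tel-TAL, at 628.6 against 667.3. The log2 ratio of mt-Rnr2 was lower than that of mt-Rnr1 by a difference of -0.41 (-0.48 to -0.34), beyond counting error. Only mt-Tv, the valine tRNA, lies between these genes, in the same precursor, and it had 1 read in the control and 2 reads with Tel-TAL. For RNAs of like depth, the 50 RNAs with at least 2000 but under 20000 reads over both libraries had a median log2 ratio of -0.025 and the 22 RNAs above that depth one of -0.086.

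Against mt-Rnr1 alone, the mRNAs were higher by 0.56 on the log2 scale (0.41 to 0.71), so the shift between mRNA and rRNA was smaller than against both rRNAs but was not carried by mt-Rnr2 alone. Of the 13 mRNAs, 10 had a log2 ratio above 0. Among the 11 with 20 reads or more, 9 did, beside 73.6% of the 14130 nuclear protein-coding transcripts with as many reads. At 20 or more reads over both libraries, 13 of the 25 mitochondrial transcripts were left, 11 mRNAs and both rRNAs. The threshold of 1.4-fold is taken from the study, whose methods state it for a ratio of read counts, and is applied here to the ratio of RPM. Of these 13, 5 were above 1.4-fold and 2 were below 1/1.4. Over all 16468 RNAs with that many reads, 44.2% were above and 11.1% below, so both counts are near the background. The median log2 ratio of the 13 was 0.42. Other rules gave other counts, each set beside the share of all RNAs. With TMM scaling 1 was above (24.6%) and 4 below (22.6%), and leaving the RNAs above 1% of a library out of the totals also gave 1 (26.8%) and 4 (20.2%). With read counts that were not scaled, an alternative chosen after seeing the data, 8 were above (70.5%) and 1, mt-Atp8, was below (4.74%). A threshold of 2 gave 1 above (18.8%) and 1 below (4.1%). Of the 3 members with 200 reads or more, 0 were above (39.6%) and 1 was below (7.72%). With no minimum and a pseudocount of 1, where tRNAs with no reads enter, 13 of 25 were above (40.5%) and 4 below (30.6%). By library totals, the 95% interval lay above 0 for 5 of the 13 (30.6% of all RNAs) and below 0 for the 2 rRNAs (6.09% of all RNAs).

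**Figure D2:**
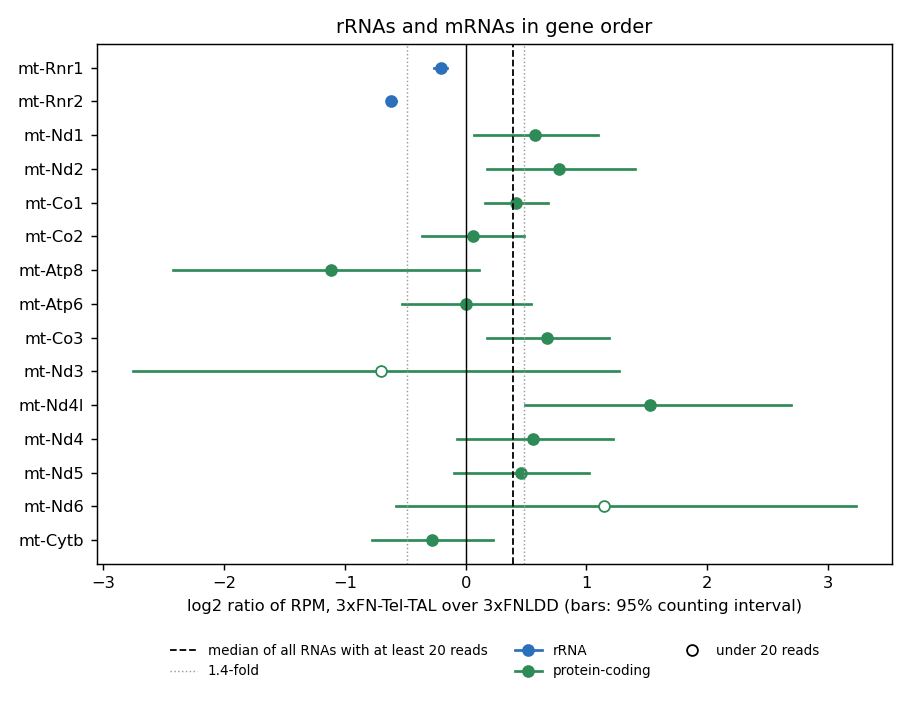
Points are log2 ratios of RPM, 3xFN-Tel-TAL over 3xFNLDD, for the 2 rRNAs (blue) and 13 mRNAs (green) in gene order, with 95% counting intervals, open where reads in both libraries together were under 20. Both rRNAs lie below 0, and the mRNAs scatter around the dashed line at 0.39, the median of all RNAs.

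For each mRNA below, the reads are given in the control and then with Tel-TAL, followed by the log2 ratio and its 95% interval. The complex I mRNAs encode the core membrane subunits of NADH dehydrogenase. The 7 of them together had 179 reads in the control and 380 with Tel-TAL. Their summed log2 ratio was 0.65 (95% interval 0.39 to 0.91), or 0.28 with TMM scaling. With a further digit the lower bound, 0.386, is just under the 0.390 median of all RNAs. mt-Nd4l (chrM:9877-10173) had the highest log2 ratio among the members that reached 20 reads, 1.52 (0.50 to 2.69), with 10 in the control and 39 with Tel-TAL. Among the 13 with 20 reads it alone had a lower bound past 1.4-fold, which 9.9% of all RNAs did. In the other direction, mt-Rnr2 alone of these 13 had an upper bound past 1/1.4, which 2.22% of all RNAs did. mt-Nd2 (chrM:3914-4951) had 34 and 79 reads, 0.78 (0.18 to 1.401). mt-Nd1 (chrM:2751-3707) had 50 and 101 reads, 0.57 (0.07 to 1.09). The intervals of mt-Nd2 and mt-Nd1 lie above 0 but hold the median of all RNAs, and that of mt-Nd4l lies above this median.

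For the other complex I mRNAs the interval held 0. mt-Nd4 (chrM:10167-11544) had 32 and 64 reads, 0.56 (95% interval -0.07 to 1.22), just above 1.4-fold. mt-Nd5 (chrM:11742-13565) had 43 and 80 reads, 0.46 (-0.10 to 1.03), just under it. mt-Nd6 (chrM:13552-14070), the only mRNA gene on the reverse strand, had 4 and 12 reads, 1.15 (-0.58 to 3.23). It overlaps the end of mt-Nd5. mt-Nd3 (chrM:9459-9806) had 6 and 5 reads, -0.70 (-2.75 to 1.27).

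The complex IV mRNAs encode the catalytic core of cytochrome c oxidase. The 3 of them had 323 and 570 reads, and their summed log2 ratio was 0.38 (95% interval 0.18 to 0.58), or 0.011 with TMM scaling. Read against the median of all RNAs, this sum is -0.011. mt-Co1 (chrM:5328-6872), the mRNA with the most reads, had 191 reads (26.5 RPM) in the control and 346 reads (35.4 RPM) with Tel-TAL, 0.42 (0.16 to 0.68). mt-Co3 (chrM:8607-9390) had 50 and 108 reads, 0.67 (0.17 to 1.18). The intervals of mt-Co1 and mt-Co3 lie above 0 but hold the median of all RNAs. mt-Co2 (chrM:7013-7696) had 82 and 116 reads, 0.06 (-0.36 to 0.49), close to equal RPM in both libraries, and -0.31 with TMM scaling. The difference between mt-Co1 and mt-Co2 was 0.36 (-0.15 to 0.86), within counting error.

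For the mRNAs of complexes III and V the interval held 0. mt-Cytb (chrM:14145-15288), which encodes cytochrome b, had 66 and 74 reads, -0.27 (95% interval -0.77 to 0.23). mt-Atp6 (chrM:7927-8607), for a proton-channel subunit of the ATP synthase, had 53 reads (7.35 RPM) and 72 reads (7.37 RPM), a log2 ratio of 0.0022 (-0.53 to 0.54), and -0.37 with TMM scaling. mt-Atp8 (chrM:7766-7969), for a small subunit of the same enzyme, had 16 and 10 reads, -1.12 (-2.42 to 0.11), the lowest ratio of the mRNAs. Together these 3 mRNAs had 135 and 156 reads, a sum of -0.23 on the log2 scale (-0.57 to 0.11), below the all-RNA median of 0.39. Their summed log2 ratio was lower than that of complex I by 0.88 (0.44 to 1.31) and lower than that of complex IV by 0.61 (0.21 to 1.01). Complex I and complex IV differed by 0.27 (-0.07 to 0.60), within counting error. The groups follow the complexes, but they were set with the values known.

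The overlapping genes show how far single ratios can be read. mt-Atp8 and mt-Atp6 are carried on 1 mRNA and share 43 bases, and mt-Nd4l and mt-Nd4 are carried on another and share 7 bases. How reads in the shared part were counted is not given in the sources used here. The shared bases are in capitals, with 20 bases on either side, at chrM:7907-7989 and chrM:10147-10193 of NCBIM37, forward strand.
mt-Atp8/mt-Atp6: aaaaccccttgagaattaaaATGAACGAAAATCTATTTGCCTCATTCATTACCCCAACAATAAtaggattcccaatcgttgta
mt-Nd4l/mt-Nd4: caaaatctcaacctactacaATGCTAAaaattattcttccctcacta
In each pair the shared stretch opens with the start codon of the downstream frame and ends with the stop codon of the upstream frame. The log2 ratio of mt-Atp8 minus that of mt-Atp6 was -1.12 (95% interval -2.53 to 0.24), and that of mt-Nd4l minus mt-Nd4 was 0.96 (-0.29 to 2.30). Both intervals hold 0, so the extreme values of mt-Atp8 and mt-Nd4l are not shown to differ from those of their partners. Taken as 1 mRNA each, the first pair had 69 and 82 reads, for a ratio of -0.19 on the log2 scale (-0.67 to 0.29), and the other had 42 and 103 reads, for one of 0.85 (0.32 to 1.41).

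**Figure D3:**
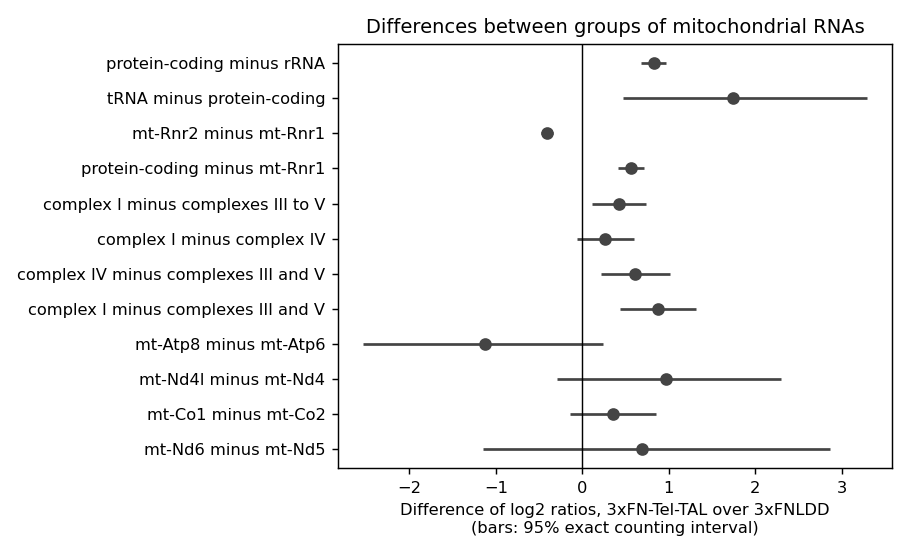
Each point is the log2 ratio (3xFN-Tel-TAL over 3xFNLDD) of the group named before "minus", less that of the group named after it, with its 95% exact counting interval, which does not depend on scaling. The mRNAs lie above the rRNAs (0.82), mt-Rnr2 lies below mt-Rnr1 (-0.41), and the intervals of the overlapping pairs hold 0.

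Along the genome the mRNA ratios followed no single slope. In gene order they were above 0 from mt-Nd1 to mt-Co1 and near 0 or lower from mt-Co2 to mt-Atp6. From mt-Co3 to mt-Nd6 they were above 0 again, except at mt-Nd3 with 11 reads, and at mt-Cytb below 0. The intervals of mt-Nd1, mt-Nd2 and mt-Co3 overlap those of mt-Co2 and mt-Atp6, and a pattern by position was not tested. Levels per length were also uneven. They ran from 1.07 (mt-Nd6) to 17.2 (mt-Co1) RPM per kilobase in the control and from 1.47 (mt-Nd3) to 22.9 (mt-Co1) with Tel-TAL, with mt-Co2 at the next place in both libraries (16.6 and 17.3).

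Of the 22 tRNA genes of the annotation, 10 are listed and 12 are not. Every listed transcript had at least 1 read in a library, so tRNAs with none in the control are listed only through their Tel-TAL reads. How often other RNAs with so few reads show this was not computed. No tRNA reached 20 reads. mt-Tc, the cysteine tRNA, had 0 reads in the control and 9 reads with Tel-TAL. A count of 0 allows up to 3 reads, or 0.416 RPM, in the control, so with its 9 reads taken as given mt-Tc was at least 2.21-fold higher. The 95% interval of its log2 ratio, which also covers counting error in the 9 reads, started lower, at 0.54. mt-Ta (alanine) and mt-Tn (asparagine) each had 0 and 4 reads, and mt-Ty (tyrosine) and mt-Tp (proline) each had 0 and 3 reads, too few for a ratio. mt-Tl1 had 3 and 8 reads, and its log2 ratio was 0.98 (95% interval -1.08 to 3.52). mt-Tg (glycine) had 0 and 1 reads, mt-Tr (arginine) had 1 in each, and mt-Tl2 (a second leucine tRNA) had 1 and 0.

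By strand, 5 of 8 reverse-strand and 5 of 14 forward-strand tRNA genes are listed, which rests on the same reads as the ratios that follow. The 5 on the reverse strand, the cluster of 4 and mt-Tp printed above, had 0 reads in the control and 23 reads with Tel-TAL, at least 5.65-fold higher against a floor of 3 reads over the group with the 23 reads taken as given. The 95% interval of their log2 ratio, which covers counting error in both libraries, started at 2.08. The 5 on the forward strand had 6 and 12 reads, and their log2 ratio was 0.56 (95% interval -0.97 to 2.26). The split by strand was made after the values were seen, and the 5 on the reverse strand are listed only through their Tel-TAL reads. Their minimum fold and interval describe the counts and are no test of a difference by strand. The library kit named in the labels does not mark strand, so reads of a tRNA and of the opposite-strand precursor cannot be told apart.

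**Figure D4:**
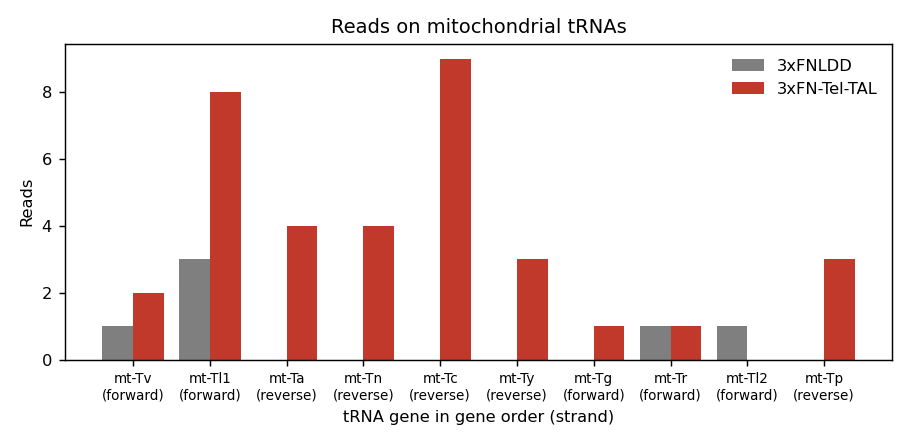
Bars give the reads on each of the 10 listed mitochondrial tRNAs in 3xFNLDD (gray) and 3xFN-Tel-TAL (red), in gene order with the strand below each name. All 5 reverse-strand tRNAs have reads in 3xFN-Tel-TAL, up to 9 for mt-Tc, and none in 3xFNLDD. These 5 are listed only through their 3xFN-Tel-TAL reads.

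Tel-TAL was designed against an array of telomeric repeats, so the repeat unit TTAGGG was sought in the mitochondrial genome on both strands. It occurs 27 times in 16299 bases, never as a tandem pair. Of the tRNAs printed above, mt-Tl1 holds it 2 times and the others do not hold it. Among 3564 windows of this length on chromosome 19 of NCBIM37, 99.7% hold the unit, with a median of 7, and 1.07% hold a tandem run. The unit occurs 2 times in each rRNA gene and 5 times in mt-Nd5. Whether Tel-TAL binds mitochondrial DNA was not tested.

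Copies of mitochondrial DNA in the nuclear genome can share reads with these genes, which was not tested. Of 45862 listed nuclear transcripts with a reference sequence, 3 matched the mitochondrial genome at 90% identity or more over at least 50% of their length. They are pseudogenes. Gm11410 on chromosome 4 of NCBIM37 (79649893 to 79651035) copies mt-Cytb and had 2 reads in the control and 0 with Tel-TAL. Gm11407 on the same chromosome (79648235 to 79649292) copies part of mt-Nd5 and had the same counts. Gm11512 on chromosome 11 (90399798 to 90400460) copies part of mt-Co1 and had 6 and 2 reads. These counts are small beside those of mt-Cytb, mt-Nd5 and mt-Co1.

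The nuclear genes that replicate, transcribe and process the mitochondrial genome gave a list of 48, of which 47 are listed and 41 had at least 20 reads. Of these 41, 16 were above 1.4-fold and 3 below 1/1.4, beside 44.2% and 11.1% of all RNAs. Their median log2 ratio was 0.31, near the 0.39 of all RNAs, and -0.060 with TMM scaling. The 6 with the most reads were Tbrg4 (0.30), Mterf3 (0.31), Polg (-0.09), Lrpprc (-0.53), Dhx30 (-0.02) and Twnk (0.22), given as log2 ratios by library totals, and all 6 were below 0 with TMM scaling. Polg is the mitochondrial DNA polymerase, Twnk the replicative helicase, Mterf3 a regulator of mitochondrial transcription, Tbrg4 and Dhx30 RNA-binding proteins of the organelle, and Lrpprc a protein that stabilizes mitochondrial mRNAs. Over the 41 the log2 ratio ran from -0.70 to 2.30. The 95% interval lay above 0 for 8, beside 30.6% of all RNAs. It lay below 0 for 1, Lrpprc, with 99 and 93 reads, beside 6.09% of all RNAs. With TMM scaling 8 of the 41 were above 1.4-fold and 7 below 1/1.4, beside 24.6% and 22.6% of all RNAs.

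For comparison by location, 10 abundant mRNAs translated in the cytoplasm had a median log2 ratio of 0.22 (-0.15 with TMM scaling), with 4 above 1.4-fold and 1 below 1/1.4, or 1 and 4 with TMM scaling. Of 9 nuclear RNAs, 7 reached 20 reads, and these had a median of 0.76 (0.39 with TMM scaling), with 6 above 1.4-fold and 1 below 1/1.4, or 2 and 1 with TMM scaling. The shares of all RNAs were 44.2% and 11.1%, and 24.6% and 22.6% with TMM scaling. Rmrp, the highest of the nuclear list (1.05), is known from mitochondria as well, and without it the median was 0.68. The nuclear list holds Terc, Rmrp and Neat1, which the study reported as enriched in these libraries, so it is not independent evidence of its direction. The study gives Terc and Rmrp as already known to bind telomeres, and it also located NEAT1 at telomeres by microscopy in human cells. The rRNA sum of -0.47 lay below both medians, and the mRNA sum of 0.36 lay between them. Whether mitochondrial RNA differs from either list was not tested.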

How the data were processed

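The 2 libraries were analysed from the read count that the authors deposited for each Ensembl transcript, without normalization. The deposited RPM values are the counts scaled to the library's total and were recomputed. The submitters' notes name cutadapt and GRCm38 (mm10). The aligner, the annotation release and the treatment of reads with several matches are not given in the sources used here. Libraries were mapped to conditions by their titles.

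Log2 ratios of RPM without a pseudocount and exact 95% Clopper-Pearson intervals were computed with scipy 1.17.1, pandas 2.3.3 and numpy 2.4.6 (Python 3.11.15). Differences between groups carry the conditional exact interval of the odds ratio. A transcript was called past 1.4-fold where it reached 20 reads over both libraries. With 1 library per condition no test was made. Alternatives were TMM scaling (trimmed mean of M values; edgeR 4.0.16, R 4.3.3; 10 or more reads), library totals that leave out RNAs above 1% of a library or the mitochondrial transcripts, a pseudocount of 1, read counts without scaling, other minimum counts and thresholds, and other class summaries. Nuclear copies were sought with BLAST 2.17.0+ in GENCODE M1 transcripts (NCBIM37), which hold 45887 of the 48876 listed transcripts. Positions and lengths came from the same annotation. Every mt- transcript is named. From the processing list the 6 with the most reads are named, with 1 transcript per gene. The intervals were checked on simulated Poisson counts, which hold counting error alone and no amplification or spread between libraries. The members and lists were chosen with earlier results of these data known.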

Additional observations from a re-analysis of the deposited data

How the results depend on the processing

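No paired analysis was possible because each condition has a lone library, and leaving out a library would leave nothing to compare. TMM scaling gave log2 ratios of -0.013 for the mRNA sum, -0.84 for the rRNA sum and -0.79 for all mitochondrial transcripts, and totals without RNAs above 1% of a library gave 0.040, -0.78 and -0.74. The median of the 2 rRNAs was -0.41, and without mt-Rnr2 the class was at -0.20. Without the member with the most reads in each class (mt-Co1 and mt-Rnr2), the difference between the mRNA and rRNA ratios was 0.53. The tRNA sum stayed between 1.74 and 2.73 under its alternatives, and its median over members could not be given because 6 of the 10 tRNAs had no reads in 3xFNLDD. Of transcripts above 1.4-fold there were 5, and 2 below 1/1.4, beside 44.2% and 11.1% of all RNAs. Counts under other rules follow, with the shares of all RNAs in brackets. TMM scaling gave 1 and 4 (24.6% and 22.6%), and totals without RNAs above 1% also gave 1 and 4 (26.8% and 20.2%). No minimum with a pseudocount of 1 gave 13 and 4 of 25 (40.5% and 30.6%). At least 200 reads gave 0 and 1 of 3 (39.6% and 7.72%). A threshold of 2 gave 1 and 1 (18.8% and 4.1%). Read counts not scaled, chosen after seeing the data, gave 8 and 1 (70.5% and 4.74%). The 95% bound past the threshold gave 1 and 1 (9.9% and 2.22%). The mitochondrial share without RNAs above 1% was 1.55% in 3xFNLDD and 0.926% in 3xFN-Tel-TAL. Leaving mitochondrial transcripts out of the totals changed no ratio by more than its interval, and the cause of the other changes was not tested. Depth limits the tRNAs and mt-Nd3 and mt-Nd6, which had under 20 reads.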
